A study of Mus musculus with 4 samples.

Results

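The cyclins, cyclin-dependent kinases (CDKs), CDK inhibitors, E2F transcription factors, retinoblastoma family proteins and the kinases and phosphatases that switch CDK1 on and off are described here in EO771 cells, a mouse mammary carcinoma line. The 41 genes were listed by name, and a gene was measured where at least 1 probe set is annotated to that gene alone. By this rule 37 of the 41 were measured, among 22180 genes on the array. Of the remaining 4, Ccne2, Ccnf and Pkmyt1 are annotated only on probe sets that also name another gene, and Ccnb1 is annotated on none, so no value is given for them. Rb1 alone has more than 1 such probe set, and the brightest one over the 4 arrays stands for it.

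One group of 2 arrays holds RNA of cells that received 100 ng/ml of recombinant mouse A-FABP in their medium. The gene for A-FABP is Fabp4, and its product binds lipids in fat cells and macrophages and is also secreted. The other group of 2 arrays holds RNA of cells that received PBS. They are called A-FABP cells and PBS cells here. The free-text description of all 4 samples, controls included, names the A-FABP treatment, whereas titles, source names and the series design set the groups apart and were followed, so each difference rests on those labels. Both had grown for 24 hours and reached a confluence of 70% or more beforehand, and how long the treatment lasted was not stated in the labels. Replicates are titled as biological, no label says whether they were separate cultures, and 1 cell line was used, so p-values measure the spread between these arrays. The question is whether the extracellular protein alters transcripts of the tumour cells.

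Progress through the cell cycle is driven by CDKs that act only when bound to a cyclin. D-type cyclins with CDK4 and CDK6, then cyclin E with CDK2, phosphorylate the retinoblastoma proteins and free E2F factors, which switch on the genes of S phase. Cyclin A and cyclin B with CDK1 then carry the cell into mitosis, while 2 families of inhibitors, INK4 and Cip/Kip, hold the kinases back.

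Expression is given as log2 values on the deposited scale, and each difference is A-FABP minus PBS control with its standard error from limma. The array medians were 5.98 and 5.95 in A-FABP cells and 6.03 and 6.03 in PBS cells. Replicates correlated over all 41345 probe sets at r = 0.9906 in A-FABP cells and 0.9914 in PBS cells, and arrays of different groups at 0.9853 to 0.9889. Differences varied with brightness, though not steadily. Genes with a mean below 5 had a median difference of -0.07 and genes of 5 to 7 a median of -0.13. Genes of 7 to 9 had a median of 0.09, genes of 9 to 11 a median of 0.05 and genes above 11 a median of 0.01. Each regulator is therefore also set beside the genes of its own range of level. Among epithelial markers Krt8 had a mean of 8.79, while Krt18 lay at 6.01, Krt19 at 6.01, Krt7 at 6.17, Cdh1 at 6.29 and Epcam at 4.79, so 5 of these 6 markers lay below the median gene level of 6.33. The adipocyte markers Adipoq, Lep, Plin1 and Cidec also lay below it, at means of 5.03 to 6.29, as did 4 of 7 macrophage and leukocyte markers, 3 of 5 endothelial markers and 2 of 6 fibroblast markers. Other markers of these cell types were bright: the macrophage gene Cd68 had a mean of 12.79, the fibroblast genes Pdgfra, Pdgfrb and Col3a1 had 11.20, 9.81 and 9.65, and the endothelial gene Eng had 10.37. Fabp4 itself was bright, with 13.33 and 13.29 in A-FABP cells and 13.20 and 13.18 in PBS cells. In whole-culture RNA, fewer cells in a phase of the cycle and less RNA per cell cannot be told apart.

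No regulator passed the test. With limma over all 41345 probe sets and Benjamini-Hochberg adjustment, 0 of 37 had an adjusted p under 0.05, and neither did any other gene (0.0% of 22180). Their adjusted p-values ran from 0.304 for Cdkn1c to 1.0 for E2f2. The differences were small: the widest, that of Cdkn2a, corresponds to a 1.29-fold lower value as deposited, and SE ran from 0.08 to 0.14 with a median of 0.08. At an unadjusted p under 0.05 there were 2 higher regulators, Cdk7 and Cdkn3, where 4.81% of all genes were higher at that threshold. There were 3 lower ones, Cdkn1c, Cdkn2a and Cdkn2b, where 8.24% of all genes were lower. Leaving out any 1 of the 4 arrays left 0 higher, and left 1 lower without A-FABP replicate 2 and 0 lower without each of the others. Under median centring the counts were 4 higher and 0 lower.

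The 37 regulators had a median difference of 0.07, with 28 above 0 and 9 below, beside a median of -0.01 over all genes, of which 47.6% lay above 0. Most regulators are bright, however, and bright genes lay higher as a whole. Set against the median of all genes in their own range of level, 20 lay above it and 17 below. Both A-FABP arrays lay above both PBS arrays in 18 regulators, against 26.0% of all genes, and below both in 6, against 27.5% of all genes. Counting both directions, 53.5% of all genes had separate groups. Among all genes at levels of 7 to 9 the A-FABP arrays lay above in 49.0%, and at 9 to 11 in 47.3%. The plot of values by array shows this order, with 4 CDK inhibitors, Ccnb3 and Ccng2 lying the other way.

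**Figure D1:**
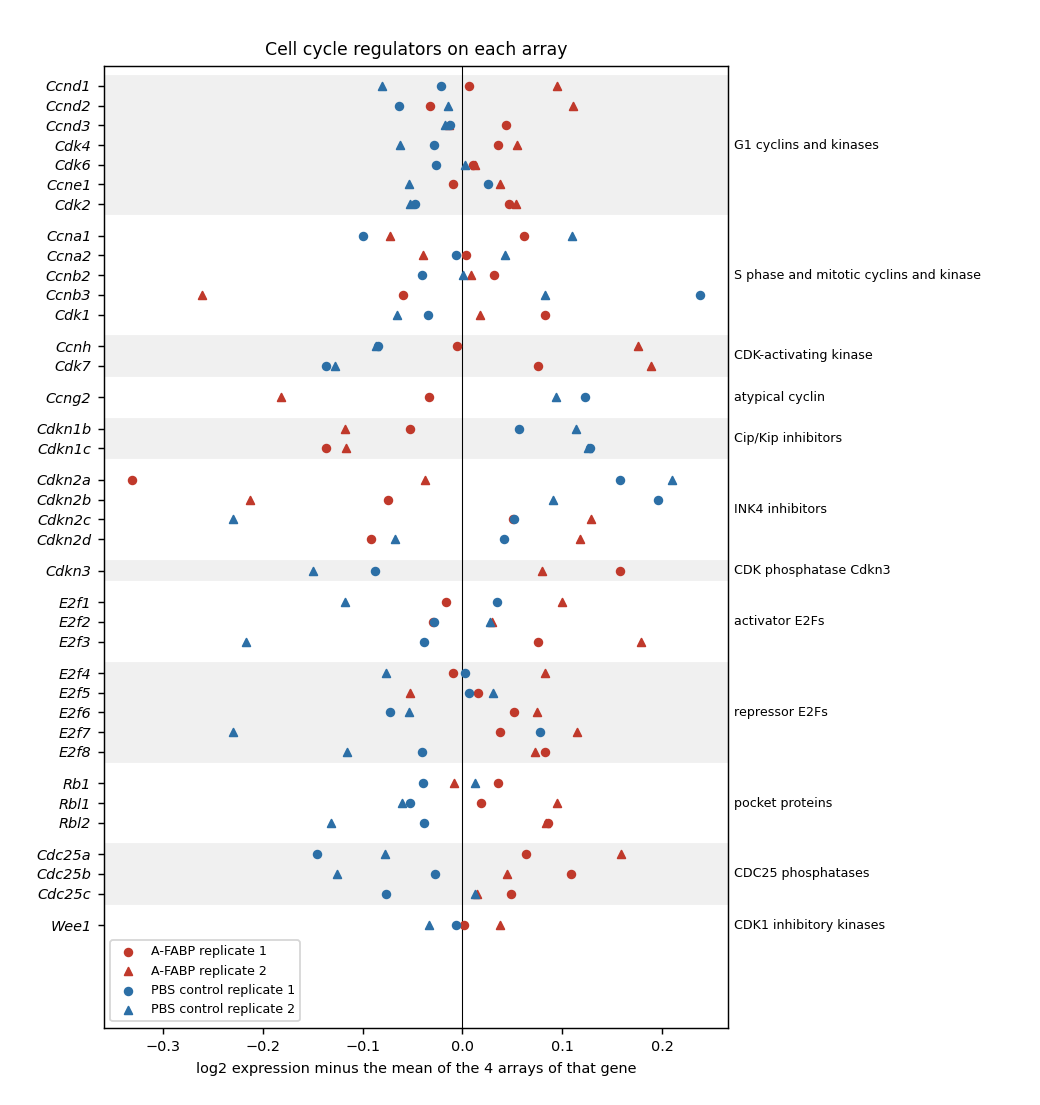
Each row is a measured regulator, and each point is 1 array, as log2 expression minus the mean of the 4 arrays of that gene. Red points are A-FABP arrays and blue points PBS arrays, with circles for replicate 1 and triangles for replicate 2. In 18 genes both red points lie right of both blue points, in 6 genes left, and in 13 the groups overlap.

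The cyclins and kinases of G1 lay close to each other in the 2 groups. Ccnd1, which encodes cyclin D1, had 12.04 and 12.13 in A-FABP cells and 12.01 and 11.96 in PBS cells, a difference of 0.10 ± 0.09 SE. Cdk4, its kinase partner, had 11.20 and 11.22 in A-FABP cells and 11.14 and 11.10 in PBS cells, a difference of 0.09 ± 0.08. For Ccnd1 and Cdk4 the A-FABP arrays were just above the PBS arrays without overlap. Cdk2, the kinase of the G1 to S transition, showed the tightest replicates of the group, with 10.54 and 10.55 in A-FABP cells against 10.45 and 10.44 in PBS cells. Its difference was 0.10 ± 0.08 (95% interval -0.11 to 0.31), and 31.3% of all genes at levels of 9 to 11 had a difference as high or higher. Ccnd2, the second D-type cyclin, had 11.80 and 11.95 in A-FABP cells and 11.77 and 11.82 in PBS cells, so its groups overlapped. The remaining 3, Ccnd3, Cdk6 and Ccne1 (cyclin E1), had differences of 0.02 to 0.03, and their signs turned to below 0 under cyclic loess and repeated quantile normalization. All 7 measured genes lay above 0 as deposited, with a median of 0.08 and adjusted p-values of 0.560 to 0.904. Of all genes, 59.1% with a mean above 11, 71.6% at 9 to 11 and 75.3% at 7 to 9 lay above 0. In 4 of the 7, Ccnd1, Cdk4, Cdk6 and Cdk2, the A-FABP arrays were above without overlap. That order held in 35.5% of all genes with a mean above 11 and in 47.3% at 9 to 11.

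The S phase and mitotic cyclins showed no common direction. Ccna2, the cyclin A of dividing somatic cells, had 11.35 and 11.31 in A-FABP cells and 11.34 and 11.39 in PBS cells, with overlapping groups and a difference of -0.04 ± 0.08 that turned to 0.03 under median centring. Ccnb2, a B-type mitotic cyclin, had 10.71 and 10.69 in A-FABP cells against 10.64 and 10.68 in PBS cells. Its difference was 0.04 ± 0.08, just under the median of its level range. Cdk1, the kinase that drives mitosis, had 9.80 and 9.73 in A-FABP cells and 9.68 and 9.65 in PBS cells, a difference of 0.10 ± 0.08 with an adjusted p of 0.579. Its A-FABP arrays lay above the PBS arrays. The 2 dim cyclins of the list are known chiefly from germ cells. Ccna1 lay at 5.83 and 5.70 in A-FABP cells and 5.67 and 5.88 in PBS cells. Ccnb3 lay far below the array medians, at 3.74 and 3.54 in A-FABP cells against 4.03 and 3.88 in PBS cells, a difference of -0.32 ± 0.12 (95% interval -0.65 to 0.01). In Ccnb3 the A-FABP arrays were the lower ones, and 14.8% of all genes with a mean below 5 had a difference as low or lower.

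Cdk7 and its partner Ccnh had the highest differences among the listed kinases and cyclins. Together with the assembly factor MAT1 they form the CDK-activating kinase, which phosphorylates other CDKs and also serves in the transcription factor TFIIH. Cdk7 had 8.66 and 8.78 in A-FABP cells, against 8.45 and 8.46 in PBS cells. The 2 PBS arrays were nearly equal, and both A-FABP arrays lay above them. The difference was 0.26 ± 0.09 (95% interval 0.02 to 0.51, adjusted p = 0.316), and 11.5% of genes at levels of 7 to 9 lay as high or higher. Ccnh had 8.95 and 9.13 in A-FABP cells and 8.87 and 8.86 in PBS cells, a difference of 0.17 ± 0.10. The A-FABP replicates of Ccnh differed from each other by more than the PBS replicates did, and without A-FABP replicate 2 the difference was 0.080. Mnat1, which encodes MAT1 and was singled out after its values were seen, lay at -0.10 ± 0.09 (95% interval -0.36 to 0.15). The interval of Ccnh, -0.11 to 0.45, also spans 0. That of Cdk7 does not, but it is not adjusted for the number of probe sets. A direction is therefore not settled for Ccnh, Mnat1 or Cdk7.

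**Figure D2:**
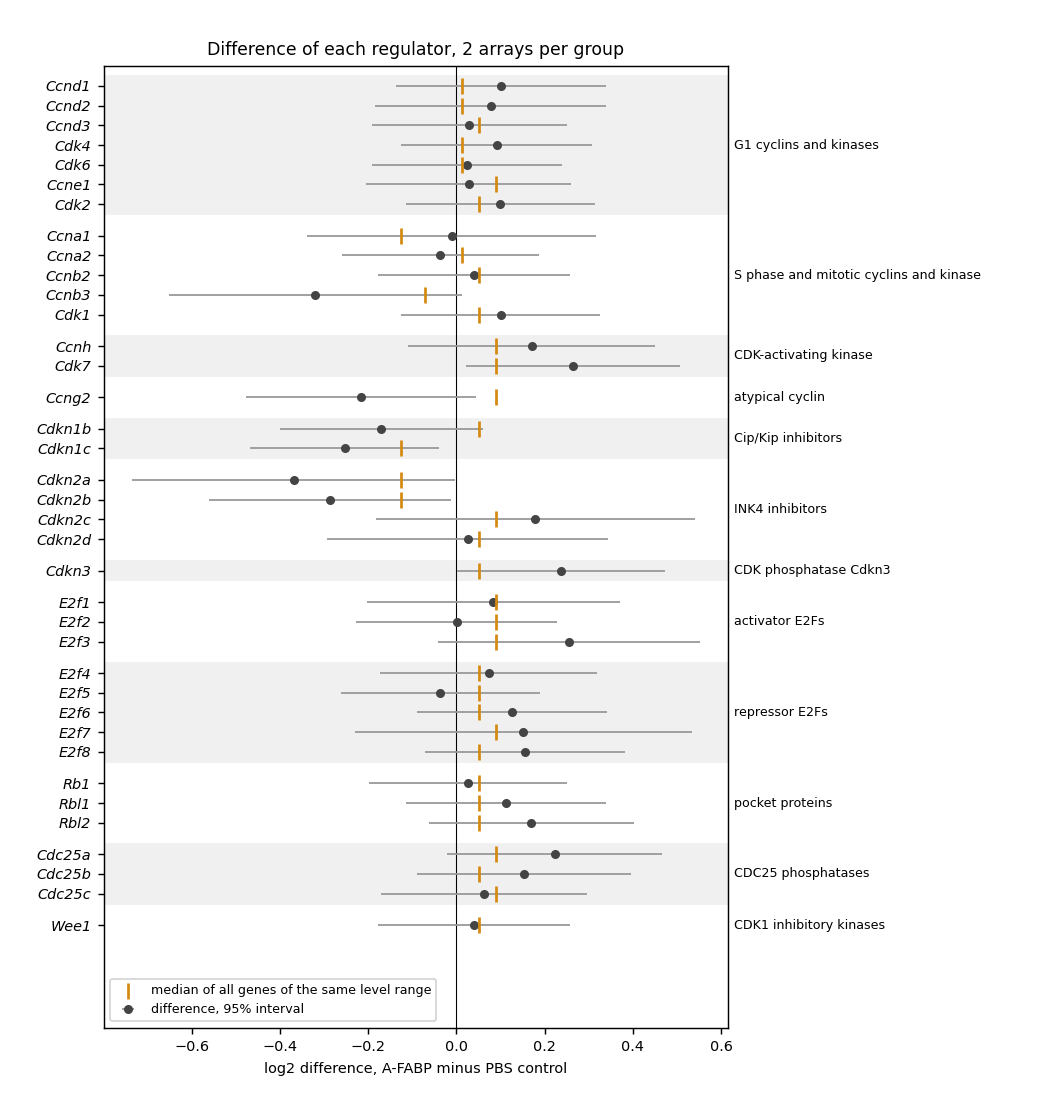
Points are log2 differences, A-FABP minus PBS control, with 95% intervals from limma for each measured regulator, 2 arrays per group. Orange ticks mark the median difference of all genes in the same range of mean level. Of the 37 intervals, 32 span 0, and the 5 that do not belong to Cdk7, Cdkn3, Cdkn1c, Cdkn2a and Cdkn2b.

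CDK inhibitors held 4 of the 6 most negative differences, beside Ccnb3 and Ccng2. Of the 6 listed genes of both inhibitor families, 4 had A-FABP arrays entirely below the PBS arrays, and the median of the 6 was -0.21. Over all genes 27.5% lay below in this way, and at levels of 5 to 7, which hold 3 of the 4, 43.2% did. Less the median of each gene's level range, the median of the 6 was -0.14. Cdkn1b, which encodes the Cip/Kip inhibitor KIP1, was the bright one among them, with 10.49 and 10.43 in A-FABP cells against 10.60 and 10.66 in PBS cells. Its difference of -0.17 ± 0.08 (adjusted p = 0.404) was small. Of the 3668 genes at levels of 9 to 11, 2.15% had a difference as low or lower. Such a share was computed for each of the 37 regulators, and none of these shares was tested. Under the 3 other scalings and with each of the 4 arrays left out in turn, the Cdkn1b difference ran from -0.21 to -0.11. Cdkn1c, an imprinted gene for the inhibitor KIP2, had 6.32 and 6.34 in A-FABP cells and 6.59 and 6.59 in PBS cells. The replicates of Cdkn1c lay close together in each group, the difference was -0.25 ± 0.08, and the adjusted p was 0.304. Genes at 5 to 7 were lower as a whole, and 25.8% of them lay as low as Cdkn1c or lower. Cdkn1a, which encodes the third Cip/Kip inhibitor and was added after its values were seen, had 12.26 and 12.29 in A-FABP cells and 12.29 and 12.29 in PBS cells, a difference of -0.01 ± 0.08.

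Among the INK4 inhibitors, which block CDK4 and CDK6, the 2 neighbouring genes Cdkn2a and Cdkn2b lay lower in A-FABP cells and Cdkn2c and Cdkn2d did not. Cdkn2b, which encodes INK4b, had 6.85 and 6.71 in A-FABP cells against 7.12 and 7.02 in PBS cells, a difference of -0.29 ± 0.10 (adjusted p = 0.321). Cdkn2a had 5.97 and 6.26 in A-FABP cells against 6.46 and 6.51 in PBS cells. Its A-FABP replicates stood further apart than its PBS replicates, and the difference was -0.37 ± 0.13 (95% interval -0.73 to -0.0024, adjusted p = 0.329). Without A-FABP replicate 1 it was -0.22, and Ccnb3 at -0.42, Cdkn2b at -0.36, Ccng2 at -0.29 and Cdkn1c at -0.24 were then wider. So were Cdk7 at 0.32, E2f3 at 0.31, Cdc25a at 0.27 and Ccnh at 0.26, in the other direction. Shares of 20.2% for Cdkn2b and 10.3% for Cdkn2a of all genes at levels of 5 to 7 lay as low or lower. Cdkn2c, which encodes INK4c, had 8.18 and 8.26 in A-FABP cells and 8.18 and 7.90 in PBS cells, with overlapping groups. Its difference of 0.18 ± 0.13 rests on the low PBS replicate 2, and was 0.04 without it. Cdkn2d, which encodes INK4d, had 8.96 and 9.17 in A-FABP cells and 9.09 and 8.98 in PBS cells, a difference of 0.03 ± 0.11 that turned to below 0 under cyclic loess and repeated quantile normalization.

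**Figure D3:**
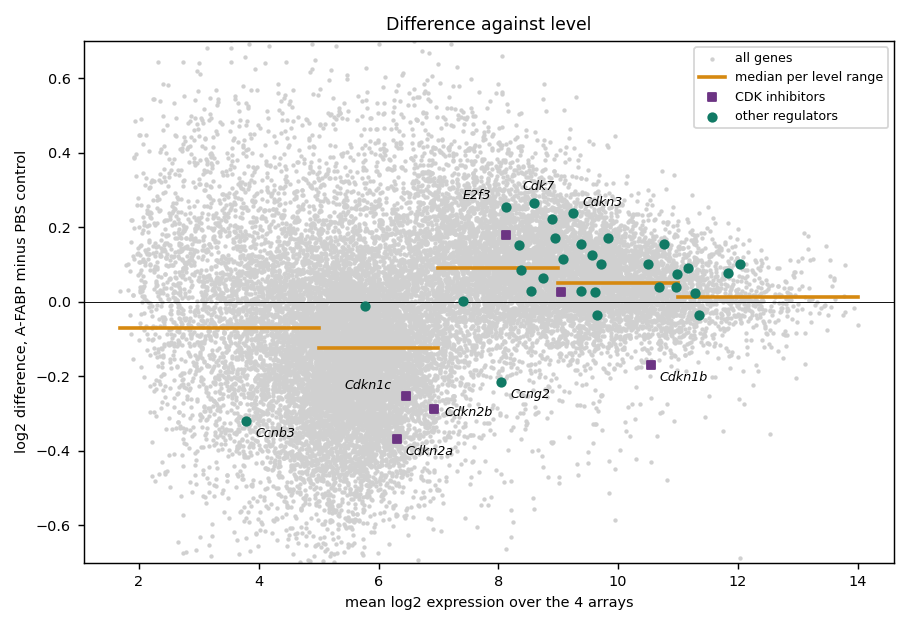
Each grey point is a gene, placed by its mean log2 expression over the 4 arrays and its log2 difference, A-FABP minus PBS control. Orange bars are medians over genes with means below 5, of 5 to 7, 7 to 9, 9 to 11 and above 11, and 127 genes beyond ± 0.7 fall outside the plot. Cdkn2a, Cdkn2b and Cdkn1c sit in the range of 5 to 7 whose median is -0.13, whereas Cdkn1b and Ccng2 sit below the bulk of brighter genes.

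The promoters of the regulators with an unadjusted p under 0.05 are shown, except that of Cdkn1c, which is named only. Such a p-value in limma was found in 13.0% of all genes, and no regulator passed the adjusted threshold. Cdkn2a has 2 starts that its 1 probe set does not separate. Sequences are from RefSeq, build GRCm38.p6, from 250 bases before to 50 bases after the start, 5′ to 3′ on the gene's strand. Capitals mark matches on either strand to an E2F site (TTTCCCGC, TTTCGCGC, TTTGCCGC or TTTGGCGC), to the cell cycle homology region TTTGAA of mitotic genes, or to a CCAAT box. The Cdk7 promoter lies at chr13:100730893-100731192, minus strand, that of Cdkn3 at chr14:46760291-46760590, plus strand, and that of Cdkn2b at chr4:89310983-89311282, minus strand. The Cdkn2a start of the INK4a transcript lies at chr4:89282143-89282442, minus strand, and the start of the Arf transcript, which encodes an unrelated protein that stabilises p53, at chr4:89294570-89294869, minus strand.
Cdk7: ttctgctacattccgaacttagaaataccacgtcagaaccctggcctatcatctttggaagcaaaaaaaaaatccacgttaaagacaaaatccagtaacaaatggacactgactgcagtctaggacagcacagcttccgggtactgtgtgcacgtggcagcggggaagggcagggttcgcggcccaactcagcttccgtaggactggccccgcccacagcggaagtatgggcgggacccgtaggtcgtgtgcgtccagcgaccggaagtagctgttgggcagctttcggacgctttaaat
Cdkn3: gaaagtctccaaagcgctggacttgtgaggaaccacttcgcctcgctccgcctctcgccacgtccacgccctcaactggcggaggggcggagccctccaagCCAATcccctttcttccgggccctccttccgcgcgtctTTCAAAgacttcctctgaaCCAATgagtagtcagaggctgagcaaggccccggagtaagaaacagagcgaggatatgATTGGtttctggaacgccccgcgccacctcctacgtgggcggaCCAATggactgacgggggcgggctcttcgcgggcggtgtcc
Cdkn2b: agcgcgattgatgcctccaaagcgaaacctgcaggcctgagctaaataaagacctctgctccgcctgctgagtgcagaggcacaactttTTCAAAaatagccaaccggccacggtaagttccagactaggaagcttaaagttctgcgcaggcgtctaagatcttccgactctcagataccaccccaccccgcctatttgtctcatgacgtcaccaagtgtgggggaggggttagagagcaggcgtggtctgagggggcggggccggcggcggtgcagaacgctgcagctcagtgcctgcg
Cdkn2a INK4a start: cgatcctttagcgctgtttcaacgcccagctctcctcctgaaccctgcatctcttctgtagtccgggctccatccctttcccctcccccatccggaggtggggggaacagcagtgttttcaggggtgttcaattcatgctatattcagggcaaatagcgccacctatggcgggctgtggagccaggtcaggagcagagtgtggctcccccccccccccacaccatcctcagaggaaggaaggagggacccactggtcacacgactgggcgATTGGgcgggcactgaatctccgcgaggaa
Cdkn2a Arf start: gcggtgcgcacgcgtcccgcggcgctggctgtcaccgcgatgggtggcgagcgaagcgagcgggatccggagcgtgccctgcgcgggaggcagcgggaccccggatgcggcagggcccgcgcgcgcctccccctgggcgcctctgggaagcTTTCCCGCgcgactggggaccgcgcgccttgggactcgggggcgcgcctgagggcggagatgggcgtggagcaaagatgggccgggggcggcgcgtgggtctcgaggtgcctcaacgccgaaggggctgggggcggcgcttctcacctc

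In these windows Cdkn3 held 4 CCAAT boxes and 1 cell cycle homology region, Cdkn2b held 1 cell cycle homology region, and the INK4a start of Cdkn2a held 1 CCAAT box. The Arf start held 1 E2F site, and Cdk7 held 0 of these motifs. RefSeq promoters were available for 27 of the 37 measured regulators, 32 promoters in all. An E2F site was present in 8 of these 32 promoters (25%), against 2.26% of all 32851 promoters in the table. The 8 genes were Cdc25a, Cdk1, Cdk2, Cdkn2a, E2f2, E2f3, E2f7 and Rbl1, and their differences ran from -0.37 in Cdkn2a to 0.25 in E2f3. The cell cycle homology region was found in 8 of the 32 promoters (25%), against 17.9% of all promoters, and the CCAAT box in 17 (53.1%), against 37.4%. The matches in the printed promoters do not overlap each other. A match describes letters in a window, not a bound site.

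Cdkn3 and Ccng2 stand beside the inhibitors and lay in opposite directions. Cdkn3 encodes a phosphatase that removes the activating phosphate from CDKs. It had 9.41 and 9.33 in A-FABP cells against 9.17 and 9.10 in PBS cells, a difference of 0.24 ± 0.08 (95% interval 0.0016 to 0.47, adjusted p = 0.329). Both A-FABP arrays lay above both PBS arrays, and 4.39% of genes at levels of 9 to 11 lay as high or higher. Ccng2, an atypical cyclin that is abundant in cells that leave the cycle, had 8.01 and 7.86 in A-FABP cells against 8.17 and 8.14 in PBS cells. The Ccng2 difference was -0.22 ± 0.09 (adjusted p = 0.374), on the opposite side of 0 from the median of 0.09 for its level range. Of the 4629 genes at levels of 7 to 9, 4.0% had a difference as low or lower. Like that of Cdkn1b, the shares of Cdkn3 and Ccng2 are low ones out of 37 regulators and were not tested.

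The E2F factors lay at or slightly above 0, with E2f5 as the exception. Of the activator E2Fs, E2f3 had 8.20 and 8.30 in A-FABP cells against 8.09 and 7.91 in PBS cells, a difference of 0.25 ± 0.11 (adjusted p = 0.364), with the A-FABP arrays above. E2f1 had 8.35 and 8.47 in A-FABP cells and 8.40 and 8.25 in PBS cells, so its groups overlapped. E2f2 had 7.39 and 7.45 in both groups, a difference of 0.00 ± 0.08, and its sign turned with the setting. Of the E2Fs that mainly repress, E2f8 had 10.85 and 10.84 in A-FABP cells against 10.73 and 10.65 in PBS cells, and E2f6 had 9.62 and 9.64 in A-FABP cells against 9.49 and 9.51 in PBS cells. The A-FABP arrays were the higher ones, by 0.16 ± 0.08 in E2f8 and 0.13 ± 0.08 in E2f6. E2f7, the close relative of E2f8, lay at 0.15 ± 0.14, and at -0.0018 without PBS control replicate 2. E2f4, the main E2F of resting cells, lay at 0.07 ± 0.09, and E2f5 at -0.04 ± 0.08, which turned to 0.03 under median centring. Over the 8 E2Fs the median was 0.10, beside medians of 0.09 and 0.05 for all genes at 7 to 9 and at 9 to 11. Adjusted p-values of the 8 ran from 0.364 to 1.0.

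The retinoblastoma family, which binds the E2Fs and holds them inactive, lay above 0 in all 3 genes as deposited. At levels of 9 to 11, where these 3 genes lie, 71.6% of all genes were above 0. Rbl2, which encodes p130, had 9.91 and 9.91 in A-FABP cells against 9.79 and 9.70 in PBS cells, a difference of 0.17 ± 0.08 (adjusted p = 0.409). Rbl1, which encodes p107, had 9.10 and 9.17 in A-FABP cells against 9.02 and 9.02 in PBS cells, a difference of 0.11 ± 0.08. In both, the A-FABP arrays lay above the PBS arrays, as they did in 47.3% of all genes at levels of 9 to 11. Rb1 itself had 9.65 and 9.61 in A-FABP cells and 9.58 and 9.63 in PBS cells, a difference of 0.03 ± 0.08 that turned to -0.03 under cyclic loess. The other Rb1 probe set, dim at 3.83 and 3.66 in A-FABP cells and 3.84 and 3.56 in PBS cells, lay at 0.04 ± 0.14.

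The CDC25 phosphatases remove the inhibitory phosphate from CDKs, and Wee1 adds it. All 3 phosphatase genes had A-FABP arrays above the PBS arrays, although the margin in Cdc25c was narrow. That order held in 49.0% of all genes at levels of 7 to 9 and in 47.3% at 9 to 11. Cdc25a, which acts in G1 and S, had 8.96 and 9.05 in A-FABP cells against 8.75 and 8.82 in PBS cells, a difference of 0.22 ± 0.09 (95% interval -0.02 to 0.47, adjusted p = 0.347). Cdc25b, which acts at entry into mitosis, had 9.49 and 9.43 in A-FABP cells against 9.36 and 9.26 in PBS cells, a difference of 0.15 ± 0.09. Cdc25c, its mitotic relative, had 8.79 and 8.76 in A-FABP cells and 8.67 and 8.75 in PBS cells, a difference of 0.06 ± 0.08 that lay below the median of its level range and turned to below 0 under cyclic loess and repeated quantile normalization. Wee1 had 10.97 and 11.004 in A-FABP cells and 10.96 and 10.93 in PBS cells, a difference of 0.04 ± 0.08.

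By phase, the 17 measured G1 regulators, inhibitors included, had a median of 0.03, the 9 S phase regulators 0.08 and the 7 mitotic regulators 0.06. The S phase group consists of Ccna2 and the 8 E2Fs, E2f4 and E2f5 included, so its median largely repeats that of the E2Fs. These phase medians were not tested against each other. Against the medians of their level ranges, 9 of the 17 G1 regulators, 5 of the 9 S phase regulators and 3 of the 7 mitotic regulators lay above. Under cyclic loess the G1 median was -0.0044 and the mitotic median 0.0053, and under median centring they were 0.09 and 0.13. Ccna1, Ccng2, Ccnh and Cdk7 were placed in no phase.

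Genes of related lists lay in a similar range. Other cyclins and other CDKs were grouped there by name, whatever their role. Over 6 lists with 81 measured genes in all, 0 passed the adjusted threshold, 3 were higher and 1 lower at an unadjusted p under 0.05, and the median was 0.07. Over all genes 4.81% were higher and 8.24% lower at that threshold. E2F target genes, the replication and nucleotide synthesis genes that E2Fs switch on, lay above 0 in 21 of 23, with a median of 0.09. In 14 of these 23 the difference exceeded the median of the gene's level range. Tyms, which encodes thymidylate synthase, led them with 7.89 and 7.71 in A-FABP cells against 7.39 and 7.46 in PBS cells (0.38 ± 0.10, adjusted p = 0.296). Gins1, a subunit of the replicative helicase, lay at 0.17 ± 0.08. Cell cycle ubiquitin ligase genes had a median of 0.10 over 18, with Skp2, whose product marks KIP1 for destruction, at 0.16 ± 0.08 and Fbxw7, which marks cyclin E, at 0.19 ± 0.08. The MuvB complex binds cell cycle promoters together with the pocket proteins p107 and p130 or with the activators B-MYB and FOXM1. MuvB genes listed with Mybl2 (B-MYB) and Foxm1 had a median of 0.05 over 7, with Lin9 at 0.15 and Lin52 at 0.12.

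Among CDKs outside the list, the median was 0.10 over 13, and the extremes were Cdk20 and Cdk18. Cdk20 had 7.65 and 7.78 in A-FABP cells against 7.34 and 7.28 in PBS cells (0.41 ± 0.09, adjusted p = 0.296). Cdk18 had 5.93 and 5.91 in A-FABP cells against 6.24 and 6.36 in PBS cells (-0.38 ± 0.09, adjusted p = 0.296), in the dim range whose median was -0.13. Other cyclins had a median of -0.03 over 12, with Ccnc, the cyclin of the Mediator kinase, at 0.34 ± 0.11 and Ccnt2 at 0.15 ± 0.08. Partners and assembly factors of CDKs had a median of 0.02 over 9, with the E2F partner gene Tfdp2 at 0.17 ± 0.08 and the dim Cables1 at -0.24 ± 0.09.

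**Figure D4:**
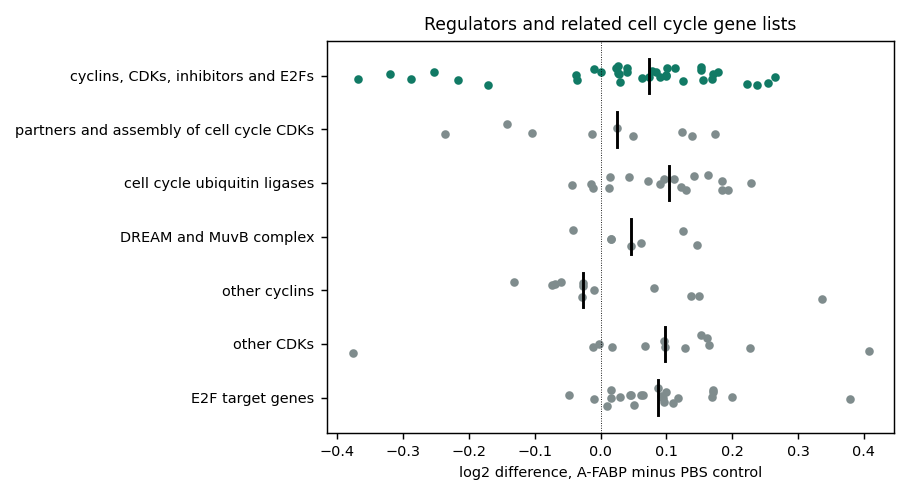
Each point is the log2 difference, A-FABP minus PBS control, of 1 gene. The measured regulators are in green in the top row and 6 related lists in grey below, with a black bar at each median. The medians run from -0.03 for the other cyclins to 0.10 for the ubiquitin ligases.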

How the data were processed

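The deposited table gives log2 expression of each probe set on 4 arrays, as the authors made it with RMA (background correction, normalization and probe summary) and Partek 6.6, per the submitters' processing notes. Neither array design nor genome build was stated in the labels. The number of arrays limits the precision. Groups came from the titles and source names, against the free-text description, which names A-FABP for all 4 samples. Platform annotation named 1 gene for 23521 of 41345 probe sets, and the brightest stands for each of 22180 genes. All probe sets were fitted with limma 3.58.1 (lmFit and eBayes, R 4.3.3, two-sided, Benjamini-Hochberg), with 2 residual and 1.91 prior degrees of freedom. Exact permutation of 2 against 2 arrays reaches a two-sided p of 0.33 at best, so none is reported. The fit was tested on simulated data. The regulators and related lists were chosen with earlier results of these data known, and no set test was run. Genes outside the regulators are the 2 with the lowest p of each related list, unless stated otherwise. Symbols were matched as annotated, and list genes without a match were left out. Alternatives were 3 scalings, the variance model, a filter on dim probe sets, the mean of a gene's probe sets, a replicate block and leaving out each array.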

Additional observations from a re-analysis of the deposited data

How the results depend on the processing

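No alternative called any regulator at an adjusted p under 0.05. At an unadjusted p under 0.05, the 2 higher and 3 lower regulators became 4 and 0 under median centring, 0 and 1 under cyclic loess, 0 and 4 under repeated quantile normalization, 7 and 4 with trend and robust settings, and 4 and 4 with the filter at the median level. Leaving out 1 array gave 0 higher and 0 to 1 lower regulators. Whether same-numbered arrays were paired is not stated in the labels, and 4 arrays cannot settle it. Deviations of same-numbered arrays correlated at r = -0.01, and with the replicate block 0 regulators were higher and 3 lower. Among the related lists, 3 genes were higher and 1 lower, against 10 higher under median centring, 10 with the filter, and 14 higher and 3 lower with trend and robust settings. Without 1 array they were 0 to 2 higher and 0 to 1 lower. The cause of these changes was not tested.

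Median centring moved every difference up by 0.07. It gave a median of 0.14 for all regulators, 0.095 for G1, 0.15 for S phase and 0.13 for mitosis, and 0.17 for the E2Fs. Cyclic loess gave -0.0044 for G1, 0.039 for S phase and 0.053 for the E2Fs, and repeated quantile normalization gave -0.0060 for G1 and 0.064 for S phase. Without 1 array the medians ran from 0.038 to 0.10 for G1 regulators, from 0.027 to 0.14 for those of S phase and from 0.031 to 0.14 for the E2Fs.

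The variance model, the filter and the replicate block leave a difference as it is, and the mean of probe sets alters that of Rb1 alone. The filter removes Ccna1 and Ccnb3, so its counts are out of 35 regulators. Under the 7 other alternatives, 3 scalings and 4 arrays left out in turn, 25 of the 37 regulators kept their sign, the inhibitors Cdkn1b, Cdkn1c, Cdkn2a and Cdkn2b and Ccng2, Cdk7 and Cdkn3 among them. Signs turned under median centring for Ccna1 (0.054), Ccna2 (0.029) and E2f5 (0.028). Under cyclic loess they turned for Ccnd3 (-0.032), Cdk6 (-0.0044), Ccne1 (-0.038), Ccna1 (0.10), Ccnb2 (-0.00032), Cdkn2d (-0.039), E2f2 (-0.032), Rb1 (-0.031) and Cdc25c (-0.0027). Under repeated quantile normalization they turned for Ccnd3 (-0.023), Cdk6 (-0.0060), Ccne1 (-0.053), Ccna1 (0.068), Cdkn2d (-0.044), E2f2 (-0.056), Rb1 (-0.020) and Cdc25c (-0.013). With an array left out, differences ran from -0.12 to 0.094 for Ccna1, from -0.012 to 0.067 for Ccne1, from -0.079 to 0.13 for Cdkn2d, from -0.029 to 0.030 for E2f2 and from -0.0018 to 0.31 for E2f7.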
